A study of Arabidopsis thaliana with 4 samples.

Results

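The genes described are 10 loci of the Arabidopsis jasmonate pathway, chosen by locus, with earlier results of these data known, from the 33557 loci listed in each library. They are the synthesis genes LOX2, LOX3, LOX4, AOS, AOC1, AOC2 and OPR3, the transcription factor gene MYC2, and the storage protein genes VSP1 and VSP2. All 10 were found in every library, and all 10 had a mean over the libraries of 1 FPKM or more, the filter for testing (FPKM is a fragment count scaled by transcript length and library size). The study compared Col-0, the wild type, with mos2-2, a T-DNA insertion line (SALK_033856) in the same background, in which the RNA-binding protein gene MOS2 is disrupted. Its question was the part MOS2 plays in microRNA maturation. There were 2 libraries of each genotype, made from purified mRNA of whole seedlings at 14 days of age, grown under 16 h of light and 8 h of dark without any other treatment named. The mutant is represented by a single insertion allele, and no complemented line was analysed here. The labels give neither the number of seedlings per library nor the hour of harvest. They do not say that replicate libraries are separate cultures, and each p-value therefore reflects the scatter of these 4 libraries alone, which may be technical. Values of a genotype are given for replicate 1 and then for replicate 2.

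Jasmonate is an oxylipin hormone of wounding, defence and flower fertility. Plastid 13-lipoxygenases oxygenate linolenic acid, allene oxide synthase and allene oxide cyclase turn the product into oxophytodienoic acid, and OPR3 reduces it in the peroxisome before beta-oxidation to jasmonic acid. The isoleucine conjugate of jasmonic acid binds the receptor COI1, JAZ repressors are degraded, and MYC2 with its relatives is released to activate genes such as VSP1 and VSP2 and the synthesis genes themselves.

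MOS2 itself was at 50.3 and 36.9 FPKM (Col-0) against 2.16 and 1.16 FPKM (mos2-2), in the direction the genotype labels give. The Col-0 mean was 26.3-fold above the mos2-2 mean, a log2 difference of -4.08, yet the limma adjusted p was 0.0727. The disrupted gene thus did not pass the adjusted threshold used below. Failing that threshold is therefore no evidence of an unchanged level. Low values lie near multiples of what 1 read is worth, which was about 0.232 FPKM for a transcript of 1000 nt in Col-0 replicate 1 and 0.141 to 0.147 FPKM in the other libraries, so Col-0 replicate 1 was the shallowest. On that estimate each of the 10 genes had between 148 reads (LOX4, in its lowest library) and 6806 reads (LOX2, in its highest). These read numbers are approximate, because they use transcript lengths of the TAIR10.1 annotation. Green-tissue markers were high in every library, at a summed 15674 to 33155 FPKM over 5 genes, and 4 of 6 seed storage genes were at 0 throughout. Of 5 root markers PYK10, SHR and SCR were detected in every library, at 3.38 FPKM or more, PLT1 was at 0 throughout, and PLT2 was at 0 in all but 1 library. Flower organ genes were also detected: all 7 listed genes were above 0 in every library, and their summed level was 66.3 and 25.7 FPKM (Col-0) against 9.36 and 49.0 FPKM (mos2-2). RNA of whole seedlings was measured, so fewer cells of a type and less RNA per cell cannot be told apart.

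The 10 genes did not all lie in one direction in mos2-2. LOX2, AOS and VSP2 were lower than in Col-0 without overlap between the genotypes, LOX4 and AOC1 were higher without overlap, and LOX3, AOC2, OPR3, MYC2 and VSP1 overlapped. The 5 genes without overlap are 3 lower and 2 higher, where 37.8% of all 19236 genes tested did not overlap, 24.7% lower and 13.1% higher. None of the 10 passed the limma threshold of an adjusted p of 0.05 over all genes (0.0624% of all genes did), and the adjusted p ran from 0.586 for LOX4 to 0.985 for MYC2. By sign alone 4 were higher and 6 lower, beside 40.6% and 59.4% of all genes. Unadjusted p-values under 0.05 were found for LOX4, with a higher level, and for LOX2 and AOS, with lower levels, that is for 3 of 10 beside 7.02% of all genes (1.66% higher, 5.36% lower). After median-ratio or quantile scaling LOX4 alone was under 0.05, with limma p-values of 0.0541 and 0.0508 for LOX2 and 0.0779 and 0.0684 for AOS. Because the genes were chosen with earlier results known, a count set beside the share of all genes is a description and no test. The median difference of the 10 genes on the log2(FPKM + 1) scale was -0.23, with a range from -1.39 to 1.44, and the median of all genes tested was -0.09. The following values are levels in FPKM, which is per length and so comparable between genes, and differences are mos2-2 minus Col-0 on the log2(FPKM + 1) scale from limma.

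**Figure D1:**
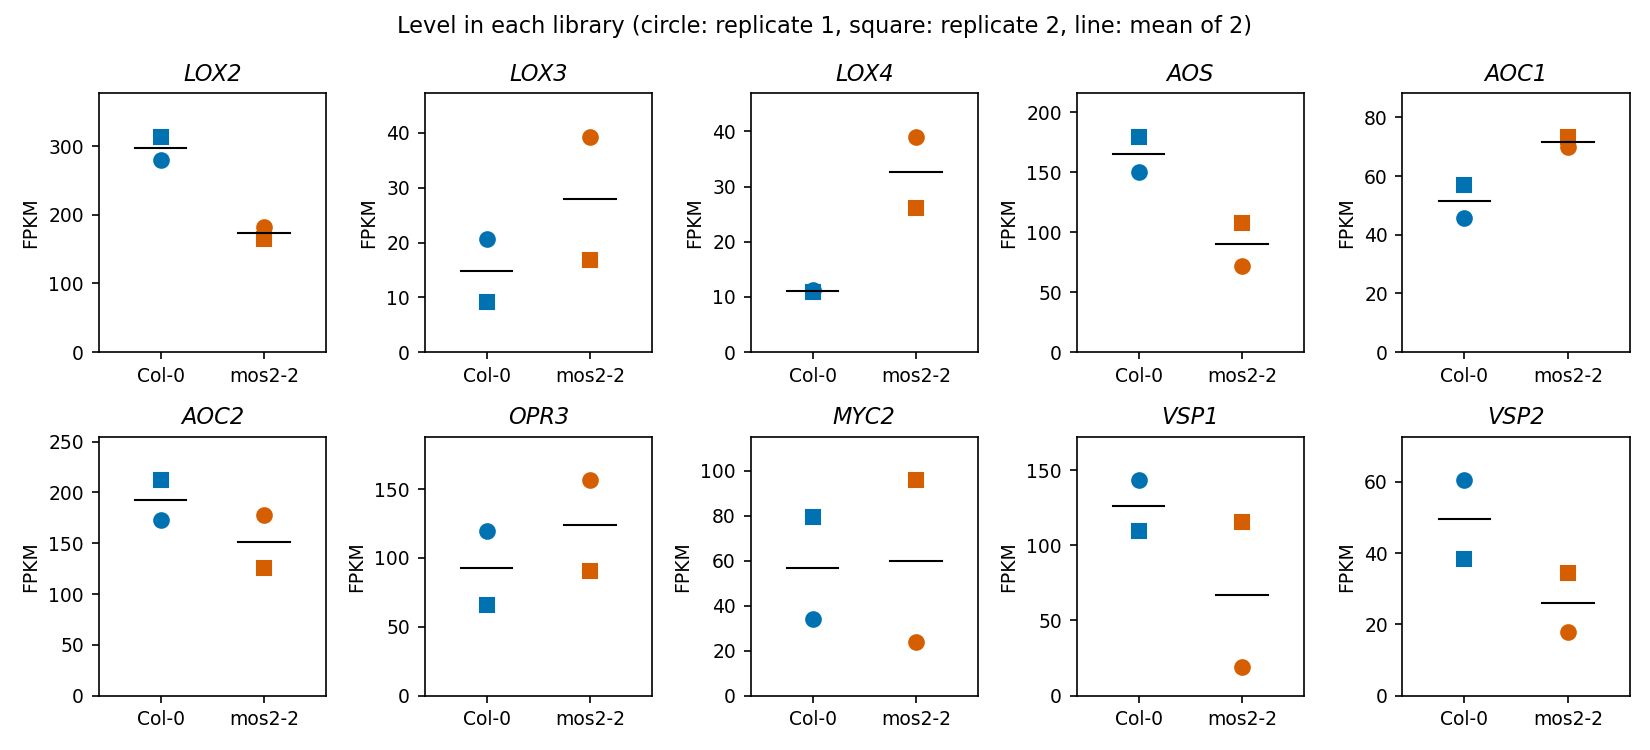
Level in FPKM (vertical axes, from 0, a separate range for each gene) of the 10 genes in each library, with Col-0 in blue and mos2-2 in orange; circles are replicate 1, squares replicate 2, and the line is the mean of 2 libraries. LOX2, AOS and VSP2 lie lower in mos2-2 and LOX4 and AOC1 higher, without overlap, while the MYC2 libraries separate by replicate number.

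None of the lipoxygenase genes of the first step passed, and LOX2 and LOX4 lay in opposite directions. LOX2 (AT3G45140, chromosome 3, 16525245 to 16529352, plus strand, 7 exons) encodes the plastid 13-lipoxygenase that is most abundant in leaves. It was at 279.7 and 314 FPKM (Col-0) against 183 and 165 FPKM (mos2-2). Both mos2-2 libraries lay well below both Col-0 libraries, and the libraries of a genotype were close to each other. The Col-0 mean of 297 ± 24.2 FPKM was 1.71-fold above the mos2-2 mean of 174 ± 12.3 FPKM (SD over 2 libraries each). The difference was -0.77 (SE 0.27, 95% interval -1.47 to -0.06), with a limma adjusted p of 0.701, which did not pass. For comparison, 7 commonly used reference genes had differences from -0.75 to 0.20 (median -0.06), with 2 lower and 1 higher without overlap. Differences of about this size were thus not limited to jasmonate genes.

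LOX4 (AT1G72520, chromosome 1, 27308513 to 27312756, plus strand, 6 exons) encodes a 13-lipoxygenase that acts with LOX3 in stamen development and fertility. It was at 11.3 and 10.9 FPKM (Col-0) against 39.1 and 26.1 FPKM (mos2-2). The Col-0 libraries were nearly equal, and both mos2-2 libraries lay above them. The means were 11.1 ± 0.235 and 32.6 ± 9.18 FPKM (SD, n = 2 each), 2.93-fold higher in mos2-2, and the difference was 1.44 (SE 0.28, 95% interval 0.71 to 2.18). With adjustment over all genes the limma p was 0.586, which did not pass. LOX4 had the smallest unadjusted p of the 10 genes, at 0.00419.

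LOX3 (AT1G17420, chromosome 1, 5977323 to 5981521, plus strand, 8 exons), the closest relative of LOX4 here, was at 20.6 and 9.13 FPKM (Col-0) against 39.3 and 16.7 FPKM (mos2-2). Within each genotype replicate 1 was above replicate 2, and the lower mos2-2 library lay below the higher Col-0 library. The difference was 0.86 (SE 0.56, 95% interval -0.60 to 2.31, limma adjusted p 0.795). It was 0.26 without mos2-2 replicate 1, 0.31 without Col-0 replicate 2, 1.40 without Col-0 replicate 1 and 1.45 without mos2-2 replicate 2. The coding sequences of LOX3 and LOX4 were 79.7% identical, with no shared run longer than 24 nt, and LOX2 was 55.5% and 54.4% identical to them.

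Shares within the family were computed as well. Of the summed FPKM of LOX2, LOX3, LOX4 and LOX6, LOX2 made up 84.4% and 89.9% in the Col-0 libraries and 65.9% and 74.5% in the mos2-2 libraries. The share of LOX4 was 3.40% and 3.13% in Col-0 and 14.1% and 11.8% in mos2-2. LOX6, the 13-lipoxygenase of roots and xylem in the literature on this species, kept to 4.37% to 6.22% in all libraries. The LOX2 to LOX4 ratio was 24.8 and 28.7 in Col-0 and 4.67 and 6.34 in mos2-2. The genotypes did not overlap in these LOX2 and LOX4 values. An exact two-sided permutation test of each gave p = 0.333, the smallest that 2 against 2 libraries allow. The ratio could not have overlapped, because LOX2 was lower and LOX4 higher without overlap. The shares reuse the same levels, so these values are no separate support. The summed FPKM of the 4 genes was 331 and 349 in Col-0 and 277 and 222 in mos2-2.

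**Figure D2:**
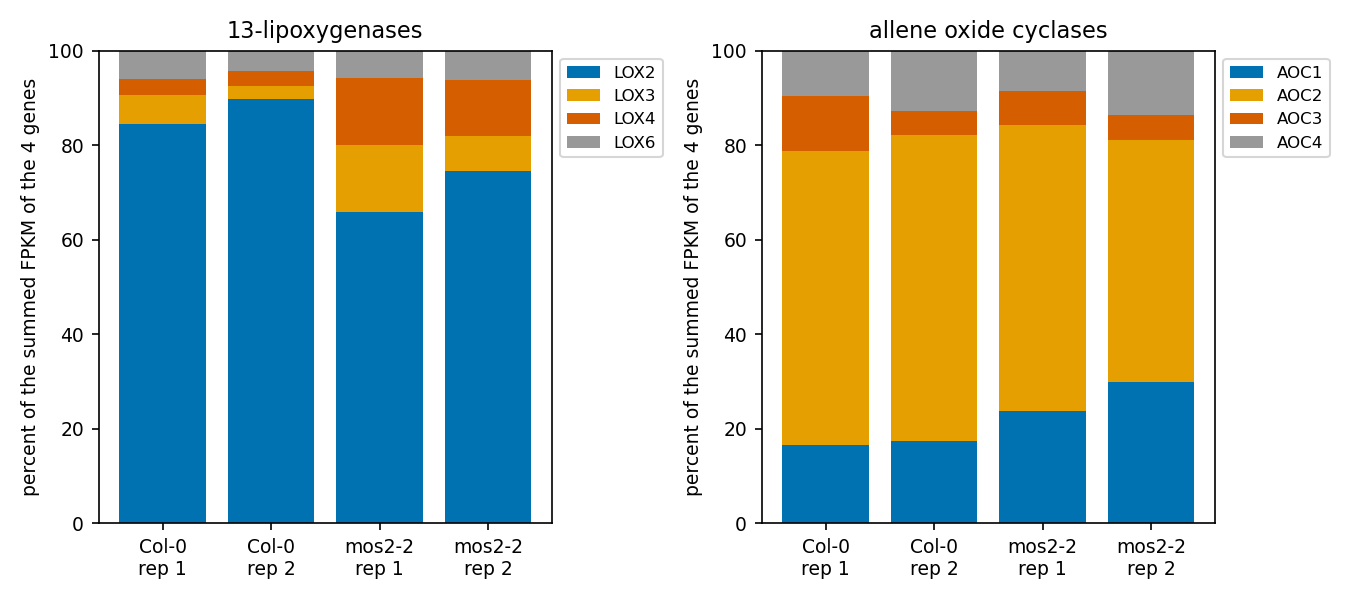
Percent of the summed FPKM (vertical axis) that each gene contributes in each of the 4 libraries (horizontal axis), for the 13-lipoxygenase genes on the left and the allene oxide cyclase genes on the right. LOX2 takes 84.4% and 89.9% in the Col-0 bars against 65.9% and 74.5% in the mos2-2 bars, and AOC1 takes 16.5% and 17.4% in Col-0 against 23.8% and 30.0% in mos2-2.

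AOS (AT5G42650, chromosome 5, 17097564 to 17099595, minus strand, 1 exon) encodes allene oxide synthase, a cytochrome P450 and the only enzyme of its step in this plant. It was at 150.1 and 179.7 FPKM (Col-0) against 71.9 and 108 FPKM (mos2-2). Both mos2-2 libraries were lower than both Col-0 libraries. The Col-0 mean, 165 ± 20.9 FPKM, and the mos2-2 mean, 89.9 ± 25.6 FPKM (SD, 2 libraries each), were 1.83-fold apart, with a difference of -0.89 (SE 0.32, 95% interval -1.73 to -0.05, limma adjusted p 0.711). AOS thus resembled LOX2 in direction and size, although neither passed.

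The sequence before the annotated start was read for LOX2, LOX4 and AOS, the synthesis genes with the smallest unadjusted p, because MYC2 binds the G-box CACGTG and the related CACATG. Each window is the 300 bases before the start in the TAIR10.1 genome of RefSeq, 5′ to 3′ on the gene's strand, and none of them contains an annotated exon base. Capitals mark CACGTG, or CACATG on either strand.
LOX2, chr3:16524945-16525244, plus strand: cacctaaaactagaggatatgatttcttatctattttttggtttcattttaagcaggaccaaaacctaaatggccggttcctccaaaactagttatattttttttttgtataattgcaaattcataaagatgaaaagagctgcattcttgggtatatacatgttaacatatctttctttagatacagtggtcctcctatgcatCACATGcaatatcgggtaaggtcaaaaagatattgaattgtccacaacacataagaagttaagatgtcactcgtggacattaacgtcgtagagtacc
LOX4, chr1:27308213-27308512, plus strand: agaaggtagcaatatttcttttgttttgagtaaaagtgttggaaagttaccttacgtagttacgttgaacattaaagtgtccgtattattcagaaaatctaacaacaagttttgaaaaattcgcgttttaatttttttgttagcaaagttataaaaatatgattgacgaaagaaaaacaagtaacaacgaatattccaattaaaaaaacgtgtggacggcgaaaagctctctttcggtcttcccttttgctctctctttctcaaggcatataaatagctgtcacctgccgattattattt
AOS, chr5:17099596-17099895, minus strand: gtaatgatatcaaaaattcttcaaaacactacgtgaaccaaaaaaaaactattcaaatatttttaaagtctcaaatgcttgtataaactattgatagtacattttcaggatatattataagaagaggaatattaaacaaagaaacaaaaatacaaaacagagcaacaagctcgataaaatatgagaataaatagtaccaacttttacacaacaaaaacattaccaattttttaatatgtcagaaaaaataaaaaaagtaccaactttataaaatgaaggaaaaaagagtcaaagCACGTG
AOS had CACGTG ending at the base before its start, the only 1 of the 10 genes with this motif in the window, where 7.18% of 26686 nuclear protein-coding genes have it. LOX2 had CACATG, with its first base 97 bases before the start, and LOX3 had the same motif on the opposite strand at 65 bases, which makes 2 of 10 against 13.1% of all such windows. CACGTG reads the same on both strands, and the motifs did not overlap. The other 7 genes, LOX4 and VSP2 among them, had neither. Counts of 1 and 2 in 10 genes are near the shares of all windows, and nothing about the differences between genotypes is read from them. A match is a description of letters and not a shown binding site.

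AOC1 (AT3G25760, chromosome 3, 9403779 to 9405338, plus strand, 2 exons) and AOC2 (AT3G25770, chromosome 3, 9406669 to 9408071, plus strand, 2 exons) are neighbours with 1330 bases between them and encode allene oxide cyclases, which set the stereochemistry of the product. AOC1 was at 45.6 and 57.1 FPKM (Col-0) against 69.9 and 73.4 FPKM (mos2-2). Both mos2-2 libraries lay above both Col-0 libraries, at means of 51.3 ± 8.10 and 71.6 ± 2.53 FPKM (SD, n = 2 each), a 1.40-fold higher mean. The difference was 0.48 (SE 0.26, 95% interval -0.19 to 1.15, limma adjusted p 0.784).

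AOC2 was the most abundant cyclase transcript, at 172 and 212 FPKM (Col-0) against 178 and 125 FPKM (mos2-2). The genotypes overlapped, with a difference of -0.36 (SE 0.32, 95% interval -1.18 to 0.47, limma adjusted p 0.836). With 1 library left out it ran from -0.61 (without mos2-2 replicate 1) to -0.10 (without mos2-2 replicate 2), and it was -0.21 without Col-0 replicate 2. The ratio of AOC2 to AOC1 was 3.78 and 3.72 in Col-0 and 2.54 and 1.71 in mos2-2, without overlap (exact two-sided permutation p = 0.333, the smallest possible). The summed FPKM of AOC1 to AOC4 overlapped between genotypes, at 277 and 327 in Col-0 and 294 and 245 in mos2-2. AOC3 contributed 5.08% to 11.7% of it and AOC4 8.44% to 13.6%. The coding sequences of AOC1 and AOC2 were 89.9% identical, and how reads with several matches were divided is not given in the sources used here, so the split between them is uncertain. AOC3 shared runs of up to 73 nt with AOC1 and 50 nt with AOC2, so its share is uncertain as well. The longest identical stretch of AOC1 and AOC2 is shown because a read lying wholly inside it fits both genes. It covers 47 nt, bases 586 to 632 of the AOC1 and 583 to 629 of the AOC2 coding sequence.
AOC1 and AOC2 shared stretch: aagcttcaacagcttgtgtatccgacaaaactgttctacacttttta

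OPR3 (AT2G06050, chromosome 2, 2359114 to 2362375, minus strand, 5 exons), whose loss makes plants male sterile, was at 119 and 66.0 FPKM (Col-0) against 156 and 90.7 FPKM (mos2-2). Replicate 1 was above replicate 2 in both genotypes, as for LOX3, and the genotypes overlapped. The difference was 0.42 (SE 0.44, 95% interval -0.73 to 1.57, limma adjusted p 0.859). It was close to 0 without Col-0 replicate 2 (-0.0031) or mos2-2 replicate 1 (0.03), and 0.84 and 0.81 without the other library of each genotype.

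MYC2 (AT1G32640, chromosome 1, 11798119 to 11801407, minus strand, 1 exon), the bHLH factor at the centre of the response, was not separated by genotype and spread widely within each. It was at 34.0 and 79.6 FPKM (Col-0) against 24.0 and 95.9 FPKM (mos2-2). Replicate 2 was 2.34-fold above replicate 1 in Col-0 and 4.0-fold above it in mos2-2, so the libraries separated by replicate number and not by genotype. The means were 56.8 ± 32.2 and 59.9 ± 50.8 FPKM (SD, n = 2 each). The difference was -0.11 with a 95% interval from -2.12 to 1.90 (SE 0.77, limma adjusted p 0.985). The mean FPKM was slightly higher in mos2-2 and the mean log2 value slightly lower, so even the sign depended on the scale. On the log2 scale it turned positive without Col-0 replicate 2 (0.49) or mos2-2 replicate 1 (0.87).

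Clock genes differed between the same pairs of libraries, and MYC2 is known to vary with the time of day. CCA1, a morning clock gene, was at 0.485 and 4.41 FPKM (Col-0) against 0.760 and 24.2 FPKM (mos2-2). Of 9 clock genes 5 were higher in replicate 2 of both genotypes, where 18.6% of all genes tested were. The others did not follow MYC2. TOC1 was lower in replicate 2 of both genotypes, at 46.1 and 35.8 FPKM (Col-0) against 67.9 and 14.5 FPKM (mos2-2). GI, LUX and ELF4 were higher in replicate 2 of Col-0 but lower in replicate 2 of mos2-2. Of the 10 jasmonate genes AOS, AOC1 and MYC2 were higher in replicate 2 of both genotypes, and LOX3, LOX4 and OPR3 were lower in it, as were 40.2% of all genes tested. In 3 of the 10 genes (LOX3, OPR3 and MYC2) the Col-0 libraries lay further apart on the log2 scale than the genotype means, and in 5 (those 3 with AOC2 and VSP1) the mos2-2 libraries did. The shares of all genes with such spreads were not computed, so these counts do not set the 10 genes apart. The part of harvest time or circadian phase in these spreads was not tested.

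**Figure D3:**
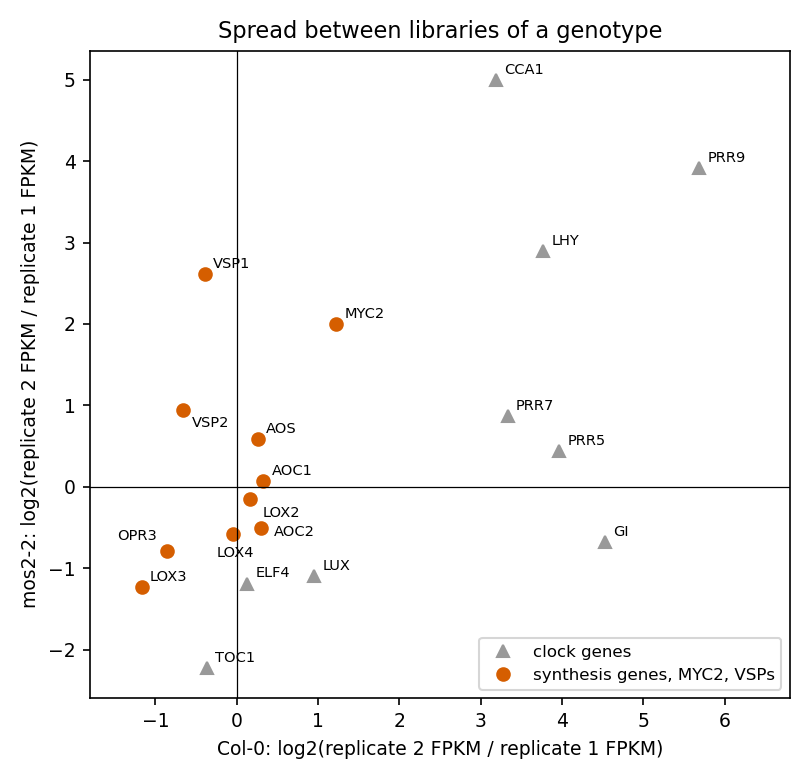
Log2 ratio of replicate 2 to replicate 1 FPKM in Col-0 (horizontal axis) and in mos2-2 (vertical axis) for the 10 jasmonate genes (circles) and 9 clock genes (triangles). MYC2 lies in the upper right with CCA1, LHY, PRR9, PRR7 and PRR5, LOX3 and OPR3 lie in the lower left, and VSP1 is high only on the mos2-2 axis.

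VSP1 and VSP2 encode vegetative storage proteins, acid phosphatase relatives that serve as reporters of the MYC2 branch. VSP2 (AT5G24770, chromosome 5, 8500468 to 8502224, minus strand, 2 exons) was at 60.5 and 38.4 FPKM (Col-0) against 17.9 and 34.3 FPKM (mos2-2). The genotypes did not overlap, but the gap between the closest libraries, 38.4 and 34.3 FPKM, was small. The Col-0 mean was 49.4 ± 15.6 FPKM and the mos2-2 mean 26.1 ± 11.6 FPKM (SD, 2 libraries each), a ratio of 1.89, and the difference was -0.93 (SE 0.42, 95% interval -2.03 to 0.17, limma adjusted p 0.745).

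VSP1 (AT5G24780, chromosome 5, 8507590 to 8509201, minus strand, 3 exons) was at 143 and 109 FPKM (Col-0) against 18.9 and 115.5 FPKM (mos2-2). Only mos2-2 replicate 1 was low, and mos2-2 replicate 2 lay between the Col-0 libraries. The means were 126 ± 24.0 and 67.2 ± 68.3 FPKM (SD, n = 2 each), with a difference of -1.39 (SE 0.86, 95% interval -3.63 to 0.85, limma adjusted p 0.795). Without mos2-2 replicate 1 the difference was -0.11, and without mos2-2 replicate 2 it was -2.67. For VSP2 the same values were -0.48 and -1.38.

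The library with low VSP levels was also the library with the lowest flower organ transcripts. All 7 listed flower organ genes were lowest in mos2-2 replicate 1, where 22.5% of all genes tested were lowest in that library. The petal and stamen identity gene AP3 was at 11.7 and 3.84 FPKM (Col-0) against 1.38 and 6.66 FPKM (mos2-2), and SEP3 at 14.6 and 6.92 FPKM (Col-0) against 1.70 and 11.3 FPKM (mos2-2). AOS, MYC2, VSP1 and VSP2 were the members of the 10 that were lowest in mos2-2 replicate 1. VSP genes are known to be expressed in flowers as well as in young leaves, and the part of flower tissue in the VSP values was not tested.

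**Figure D4:**
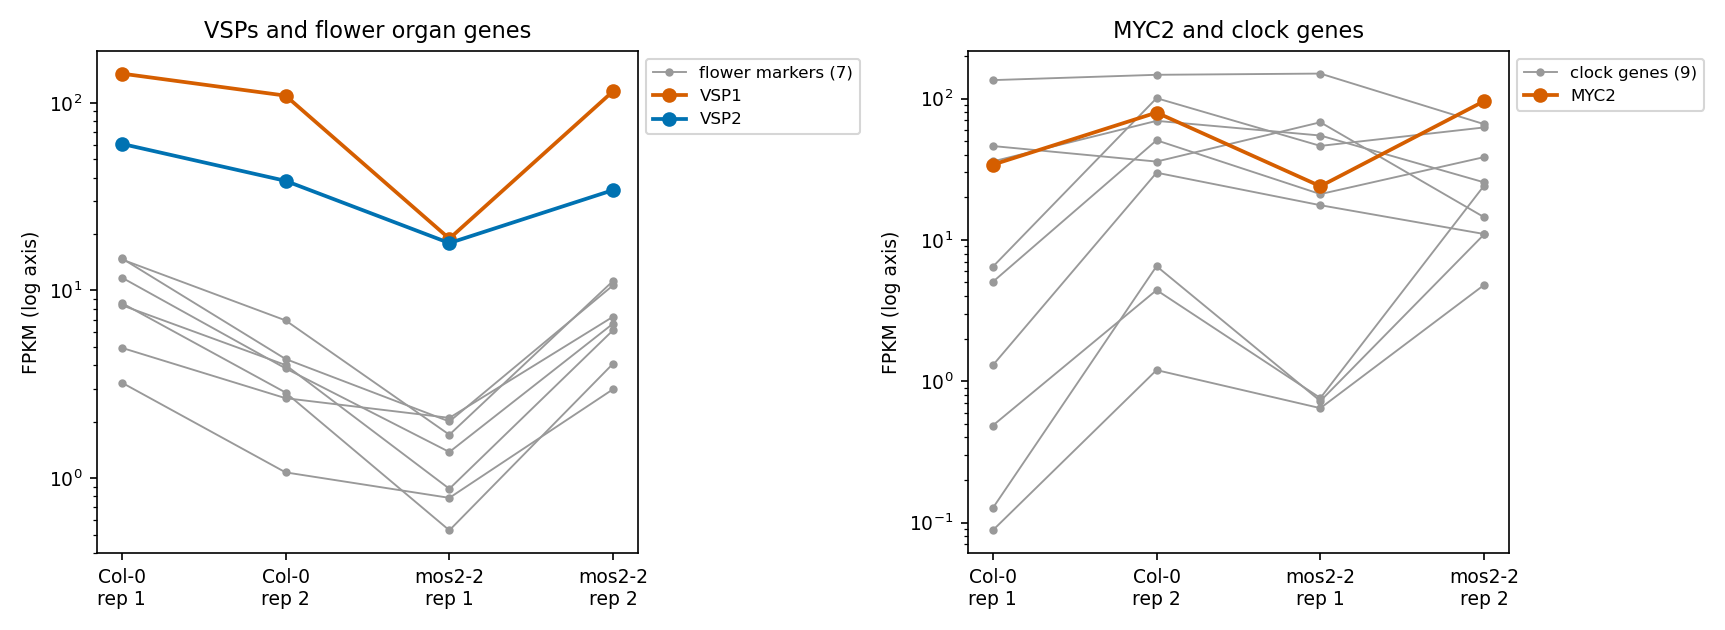
FPKM on a log axis in the 4 libraries (horizontal axis), with VSP1 and VSP2 beside 7 flower organ genes on the left and MYC2 beside 9 clock genes on the right; lines join the values of a gene and carry no order. VSP1 is at 18.9 FPKM in mos2-2 replicate 1, the library where all 7 flower organ genes are lowest.

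VSP1 and VSP2 are separated by 5365 bases that hold the pseudogene AT5G24775, and their coding sequences were 87.8% identical. The longest identical stretch is 54 nt, bases 243 to 296 of the VSP1 and 228 to 281 of the VSP2 coding sequence, and a read lying wholly inside it cannot be assigned.
VSP1 and VSP2 shared stretch: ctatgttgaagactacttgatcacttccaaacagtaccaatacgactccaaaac
The ratio of VSP1 to VSP2 was 2.37 and 2.85 in Col-0 and 1.06 and 3.37 in mos2-2, so the genes did not keep a fixed proportion across libraries. The windows before their starts are shown because the genes are near neighbours with similar products, yet their patterns over the libraries were not the same. Here capitals mark the longest run identical in the other window, 23 bases, which begins 142 bases before the start of VSP1 and 76 bases before that of VSP2.
VSP1, chr5:8509202-8509501, minus strand: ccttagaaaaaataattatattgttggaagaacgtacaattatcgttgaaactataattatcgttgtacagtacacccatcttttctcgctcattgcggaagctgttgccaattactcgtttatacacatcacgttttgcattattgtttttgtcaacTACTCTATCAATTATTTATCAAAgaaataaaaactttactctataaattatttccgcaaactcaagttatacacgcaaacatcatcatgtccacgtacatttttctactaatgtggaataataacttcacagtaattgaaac
VSP2, chr5:8502225-8502524, minus strand: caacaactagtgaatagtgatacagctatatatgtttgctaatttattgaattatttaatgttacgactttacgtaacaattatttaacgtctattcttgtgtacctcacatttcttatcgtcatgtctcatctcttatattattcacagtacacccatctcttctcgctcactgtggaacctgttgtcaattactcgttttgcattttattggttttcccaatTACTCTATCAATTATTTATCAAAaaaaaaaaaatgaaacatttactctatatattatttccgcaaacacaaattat
The aligned windows were 48.1% identical, and neither held CACGTG or CACATG.

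The rest of the pathway was examined with 64 other genes, of which 58 passed the filter. None had a limma adjusted p under 0.05. Of the 58, 22 were higher and 36 lower (40.6% and 59.4% of all genes), with a median difference of -0.14 beside -0.09 for all genes. After median-ratio scaling 25 were higher and 33 lower, and after quantile normalization 26 and 32. Without overlap 7 were higher and 14 lower, near the 13.1% and 24.7% of all genes. After median-ratio scaling these counts were 9 and 12, and after quantile normalization 11 and 11. Unadjusted limma p-values under 0.05 belonged to 3 with a higher and 6 with a lower level (1.66% and 5.36% of all genes). These lists too were chosen with earlier results known.

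**Figure D5:**
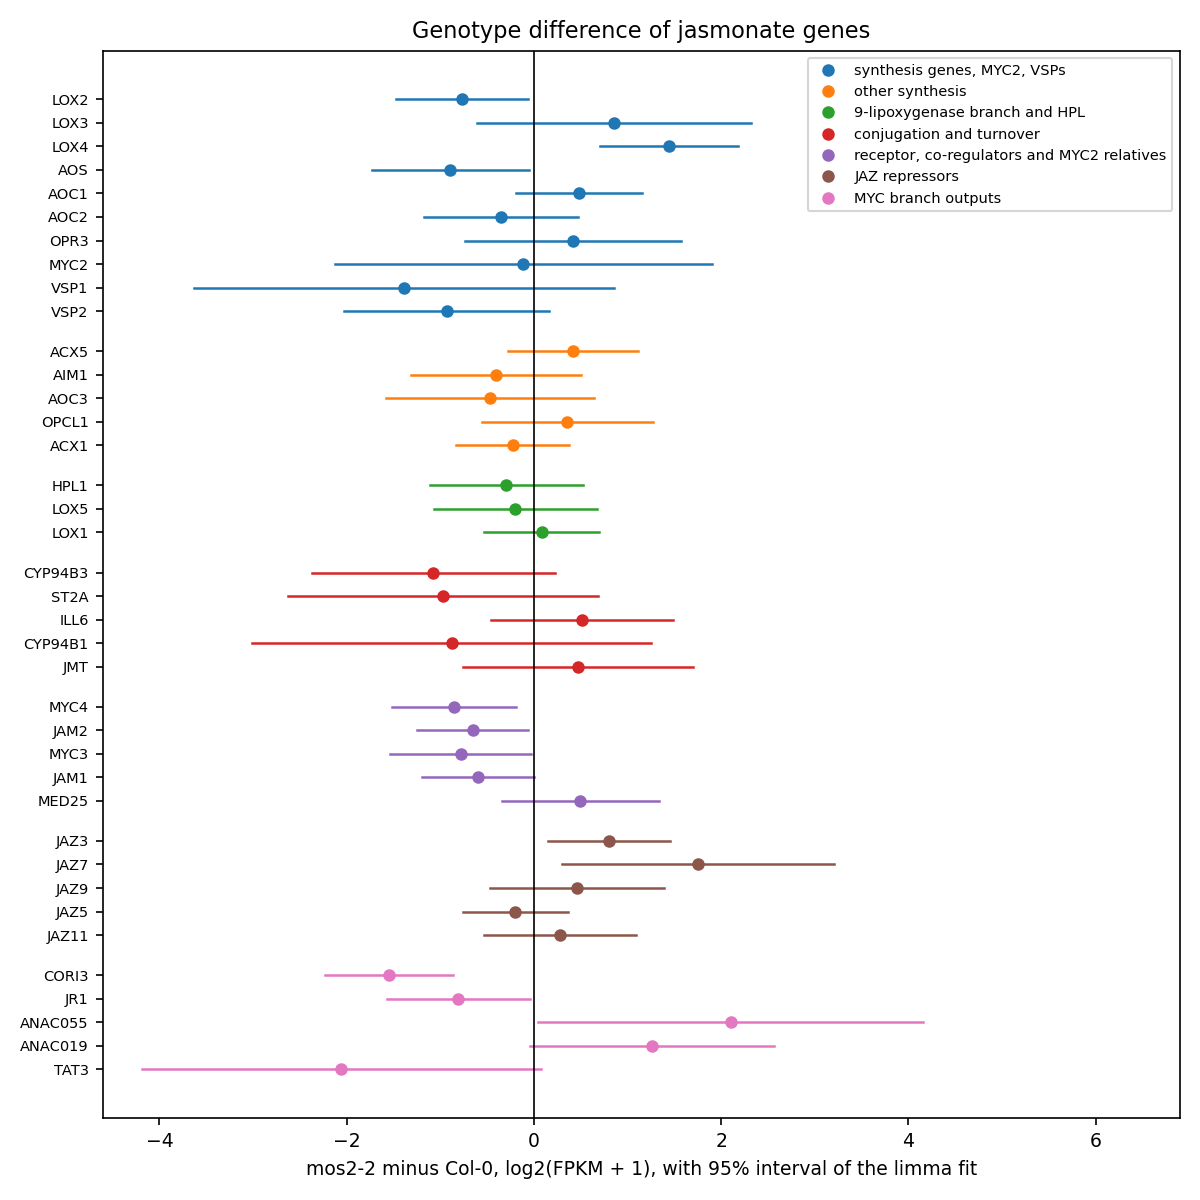
Difference between mos2-2 and Col-0 on the log2(FPKM + 1) scale (horizontal axis) with its 95% interval from limma, for the 10 jasmonate genes and for up to 5 genes of each other list (n = 2 libraries per genotype). LOX4 at 1.44 and CORI3 at -1.55 have the intervals farthest from 0 among the genes shown, and no gene shown passed the adjusted threshold.

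Among the other synthesis genes 14 of 16 were tested, 5 higher and 9 lower, with differences from -0.46 to 0.42 and a smallest adjusted p of 0.795. ACX5, a peroxisomal acyl-CoA oxidase, was at 4.40 and 6.49 FPKM (Col-0) against 7.51 and 7.50 FPKM (mos2-2), and ACX1, of the same family, at 29.3 and 33.5 FPKM (Col-0) against 26.6 and 26.7 FPKM (mos2-2). These were the only genes of the list without overlap, 1 higher and 1 lower, beside 13.1% and 24.7% of all genes tested. ACX1 overlapped after median-ratio or quantile scaling. OPCL1, a ligase that activates the precursor for beta-oxidation, and AIM1, a beta-oxidation enzyme, overlapped, with differences of 0.36 and -0.41. DAD1, a lipase that releases linolenic acid in stamens, and its relative DGL did not pass the filter. The 3 genes of the neighbouring branches differed little between genotypes: LOX1 and LOX5, which are 9-lipoxygenases, by 0.08 and -0.20, and the hydroperoxide lyase gene HPL1 by -0.30.

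Genes of conjugation and turnover were mostly variable. Of 12 genes 11 were tested, 6 higher and 5 lower. CYP94B3 and ST2A were lower without overlap, where 24.7% of all genes tested were, and no gene was higher without overlap (13.1% of all genes). After median-ratio scaling 1 gene of the list was higher without overlap, and after quantile normalization 2 were. CYP94B3, which hydroxylates the active conjugate, was at 9.02 and 3.01 FPKM (Col-0) against 2.31 and 1.74 FPKM (mos2-2). Its difference of -1.07 was -0.41 without Col-0 replicate 1 and -1.73 without Col-0 replicate 2. ST2A, a sulfotransferase of hydroxyjasmonate, was at 0.498 and 3.77 FPKM (Col-0) against 0.325 and 0.403 FPKM (mos2-2), so its difference rested on Col-0 replicate 2. ILL6, an amidohydrolase of the conjugate, and JMT, the jasmonate methyltransferase, overlapped, with differences of 0.51 and 0.47. CYP94B1 differed by -0.88, on 4.83 FPKM in Col-0 replicate 1 against 0.174 to 0.519 FPKM in the other libraries.

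The receptor gene COI1, the co-regulators and the relatives of MYC2 form a mixed list, of which 9 of 10 genes were tested and none passed. Of the 9, 8 were lower (59.4% of all genes were). Without overlap 6 of the 9 were lower (24.7% of all genes), or 5 after quantile normalization. A lower level with an unadjusted p under 0.05 was found for 4 of the 9 (5.36% of all genes). These were MYC3, MYC4, JAM1 and JAM2. After median-ratio or quantile scaling JAM1 and JAM2 were above 0.05, with limma p-values of 0.0863 and 0.0783 for JAM1 and of 0.0501 and 0.0580 for JAM2. MYC4, which acts redundantly with MYC2 in leaves, was at 10.5 and 11.9 FPKM (Col-0) against 4.87 and 6.73 FPKM (mos2-2) (difference -0.85, SE 0.26, limma adjusted p 0.654). MYC3, another close relative, was at 57.1 and 50.9 FPKM (Col-0) against 37.2 and 25.6 FPKM (mos2-2) (difference -0.78, limma adjusted p 0.711). Both genes were lower in each mos2-2 library than in each Col-0 library, and libraries of a genotype were closer together than for MYC2. JAM1 and JAM2, bHLH repressors that compete with MYC2, differed by -0.60 and -0.65, with JAM2 at 6.48 and 6.31 FPKM (Col-0) against 3.77 and 3.63 FPKM (mos2-2). MED25, a Mediator subunit that binds MYC2, was the only gene of the list with a higher value, with a difference of 0.50 and overlapping libraries, which no longer overlapped after median-ratio or quantile scaling. Its difference was 0.17 without mos2-2 replicate 1, 0.30 without Col-0 replicate 2 and 0.82 without mos2-2 replicate 2.

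JAZ repressor genes divided into 6 higher and 5 lower of 11 tested, beside 40.6% and 59.4% of all genes. The counts were 9 and 2 after quantile normalization and 8 and 3 after median-ratio scaling, where the median of all genes was 0.01. Without overlap 3 were higher and 1 lower (13.1% and 24.7% of all genes), or 3 and 0 after either scaling. JAZ3 was at 15.4 and 14.0 FPKM (Col-0) against 30.0 and 23.1 FPKM (mos2-2), without overlap. JAZ7 was at 13.3 and 14.1 FPKM (Col-0) against 27.4 and 85.2 FPKM (mos2-2) (difference 1.75, limma adjusted p 0.676), without overlap but with a wide spread in mos2-2, and without mos2-2 replicate 2 the difference was 0.95.

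Outputs of the MYC branch other than the VSPs were tested for 10 of 11 genes, with a median difference of -0.78. By sign 3 were higher and 7 lower (40.6% and 59.4% of all genes), or 4 and 6 after median-ratio or quantile scaling. Without overlap 3 were higher and 4 lower (13.1% and 24.7% of all genes). An unadjusted limma p under 0.05 was found for 1 with a higher and 2 with a lower level (1.66% and 5.36% of all genes). CORI3, a cystine lyase gene induced by coronatine and jasmonate, was at 73.1 and 77.5 FPKM (Col-0) against 28.8 and 21.9 FPKM (mos2-2), 2.97-fold lower. Its difference of -1.55 (SE 0.26) had the smallest unadjusted p of the 58 genes, at 0.00224, and a limma adjusted p of 0.569. JR1, a jacalin-related lectin, was at 109 and 92.0 FPKM (Col-0) against 48.0 and 67.2 FPKM (mos2-2). Its unadjusted limma p of 0.0427 became 0.0604 after median-ratio scaling and 0.0528 after quantile normalization. TAT3, a tyrosine aminotransferase, was at 51.9 and 9.18 FPKM (Col-0) against 6.03 and 3.43 FPKM (mos2-2), lower without overlap but with a wide spread in Col-0, and its difference of -2.06 was -0.87 without Col-0 replicate 1 and -3.25 without Col-0 replicate 2. The NAC factor genes ANAC019 and ANAC055, which MYC2 activates directly, lay in the other direction. ANAC055 was at 4.56 and 27.4 FPKM (Col-0) against 57.8 and 48.6 FPKM (mos2-2) (3.32-fold higher by the means, SE of the log2 difference 0.79, limma adjusted p 0.711), and ANAC019 at 4.54 and 13.1 FPKM (Col-0) against 17.4 and 23.4 FPKM (mos2-2). The ANAC055 difference was 0.93 without Col-0 replicate 1 and 3.28 without Col-0 replicate 2, and that of ANAC019 was 0.59 and 1.94. For ANAC055 the unadjusted limma p of 0.0467 became 0.0571 after median-ratio scaling and 0.0551 after quantile normalization.

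Genes with the most similar pattern were ranked by the mean absolute difference of centred log2(FPKM + 1) values over the 4 libraries, among 14150 other genes whose mean was 5 FPKM or more. The closest to MYC2 were G-TMT, PP2-B13 and RPT2, at 0.03, 0.04 and 0.05, and 7 genes lay within 0.1 of it. The closest to AOS were MSRB5, GATA3 and ATL2, at 0.04, 0.04 and 0.05. The closest to LOX2 were AT3G16180, AT1G28310 and AT5G22875, each at 0.03, among 104 genes within 0.1. For VSP2 they were AT3G13910, the chloroplast locus ATCG00110 and CSD1, at 0.02, 0.03 and 0.07. With 4 libraries such likeness is a description only.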

How the data were processed

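Gene expression was measured by mRNA sequencing in 2 Col-0 and 2 mos2-2 seedling libraries. The authors deposited FPKM per locus; the submitters' processing notes name TopHat, Cuffdiff and the TAIR10 build. Tool versions, annotation release, strandedness and how multiple matches were handled were not given in the sources used here. Names, coordinates and sequences came from RefSeq's TAIR10.1. The files hold no coordinates, so the builds could not be compared by length.

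Values were used as deposited. Genes averaging 1 FPKM or more (19236) were log2(FPKM + 1) transformed and compared between genotypes, without covariates, with limma 3.58.1 in R 4.3.3, using its mean-variance trend. Tests were two-sided, Benjamini-Hochberg adjusted over all of these genes, with a threshold of 0.05. Residual degrees of freedom were 2, prior ones 2.84. The fit was tested on simulated data. Adding 1 makes differences of low genes appear smaller. A fold is one mean FPKM divided by the other. Relative depth came from the commonest low value of FPKM times transcript length.

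The 10 genes and the lists were chosen with earlier results of these data known. Of each other list up to 5 tested genes are named, by smallest unadjusted p, with family members, markers and clock genes beside a result; DAD1 and DGL were named after their values were seen. Alternatives were other pseudocounts, filters and scalings, a replicate block, and leaving out each library. Sequences were handled with Biopython 1.88.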

Additional observations from a re-analysis of the deposited data

How the results depend on the processing

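None of the 10 genes passed the limma threshold under any alternative run. At an unadjusted p under 0.05 there were 3 of them as reported and 1 to 3 under the alternatives, though not always the same ones: LOX4 was among them throughout, LOX2 and AOS were above 0.05 after either scaling and with any 1 library left out, and VSP1 and VSP2 were under it without mos2-2 replicate 2. Their smallest adjusted p was 0.39 to 0.965. Over all genes 12 passed, against 4 with a pseudocount of 5, 4 without a filter on low values, 7 without the trend, 0 among genes of at least 300 nt (1397 at an unadjusted p under 0.05) and 0 with any 1 library left out (819 to 1790). In those fits the single remaining library of a genotype has its variance taken from the other genotype. The labels state no pairing by replicate number, and the correlation of deviations between libraries sharing a number was 0.211 over genes. A replicate block left 6 genes past the threshold, and again none of the 10. Under the block the unadjusted p of LOX2 was 0.0521 and that of LOX3 0.0133 (limma). The median difference of the 10 genes, -0.23, was -0.12 with median-ratio scaling and -0.13 with quantile normalization, which moved the median of all genes from -0.09 to 0.01, and ran from -0.56 to -0.043 with 1 library left out. The 3 genes lower without overlap became 4 to 5, and the 2 higher became 2 to 4, with 1 library left out, since fewer libraries overlap less. Sign changes with 1 library left out were as follows. The difference of OPR3 ran from -0.0031 (without Col-0 replicate 2) to 0.84, and that of MYC2 from -1.09 to 0.49 (without Col-0 replicate 2) and 0.87 (without mos2-2 replicate 1). OPCL1 ran from -0.040 (without Col-0 replicate 1) to 0.75, HPL1 from -0.59 to 0.0037 (without mos2-2 replicate 1), and LOX1 from -0.0056 to 0.17 and JMT from -0.090 to 1.03 (both lowest without mos2-2 replicate 2). Beside the 3 sign changes among the 10 genes, 127 differences recomputed under the alternatives kept their direction. Apart from what leaving out libraries or genes does by itself, the cause was not tested.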
